A study of Capra hircus with 3 samples.

Results

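The genes described here are the goat genes of 10 homeobox families that lay out position and cell identity in the embryo: the HOX genes of the A, B, C and D clusters, and the IRX, DLX, PRRX, ALX, PAX, MEIS, PBX and PITX genes with the family of SIX4 and SIX5. They were chosen by symbol alone, as a family name followed by a number, with HOXC13 left out. The rule itself used no measured value, but it was set with earlier results of these data known. Of 16739 genes in the table, 61 met the rule. They were 28 HOX genes (8 HOXA, 8 HOXB, 7 HOXC and 5 HOXD) and 33 others (6 IRX, 6 PAX, 4 DLX, 2 PRRX, and 3 in each of the other 5 families). RefSeq's list of goat genes (assembly ARS1.2) held 60 of the 61 symbols, and other goat members of the families are not analysed here.

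Single cells were profiled from the back skin of goat fetuses, of the Northern Shaanxi White Cashmere breed, at embryonic days 60, 90 and 120 (E60, E90 and E120), the stages at which the hair follicle is induced, takes shape and differentiates. Each stage was 1 library, made from at least 2 fetuses whose cells were pooled before barcoding, so no replicate stands behind any value and no test between stages was possible. E60 and E90 cells came from whole skin treated with collagenase. E120 cells came from hair follicles picked out by forceps after collagenase and then dissociated with TrypLE, so wherever E120 is compared with an earlier stage, age and dissociation cannot be told apart.

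Homeobox proteins bind DNA through a shared domain and switch on or off the programmes of a body region or cell type. HOX genes lie in clusters, and their order along a cluster follows the order in which they are expressed from head to tail, so that mesenchymal cells of the adult skin keep a combination of HOX genes that marks where on the body they came from. PBX and MEIS proteins bind DNA together with HOX proteins as cofactors, and the other families pattern the limb, face, body wall, ectoderm, muscle and neural crest.

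The libraries held 6849, 6931 and 6896 cells with a median of 8579, 3714 and 13064 unique molecular identifiers (UMIs, counted transcripts) per cell at E60, E90 and E120. The barcode sequences shared between libraries numbered 9 to 13 a pair. Cells were grouped into 44 clusters without using any of the 61 genes, 36 clusters were named from marker lists, and 39 clusters had at least 90% of their cells from 1 library. Counts were summed over the cells of a class in a library and scaled to a total of 1000000 (CPM), with exact 95% Poisson intervals in parentheses that cover counting error only. Levels are compared for 1 gene between classes or stages, never between genes, because 3′ counts are not set against transcript length; shares of HOX counts are shares of these counts. Dermal-like cells numbered 5436 at E60 (7 clusters), 550 at E90 (3 clusters) and 222 at E120. Of the 222, 209 were in 1 cluster led by FGF7, APOD and RSPO2 that was closest to the list of follicle papilla markers. At E90, 227 of the 550 were in a cluster closest to that list, and the E60 clusters were closest to the fibroblast list. Stage and kind of dermal cell therefore cannot be told apart. Epithelial-like cells numbered 3 at E60, too few to use, 2269 at E90 and 3923 at E120. Endothelial-like cells numbered 140, 84 and 367, and the E60 cluster was closest to the lymphatic marker list. The largest group at E90, 3740 cells with ACTG2 and COX3 among the leading genes, stayed unnamed, as did 340 cells at E60 and 2192 at E120. The E90 group and most unnamed clusters of E120 were closest to the epithelial list, so epithelial-like values may leave out epithelial cells.

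RNA of other cell types was found in every class at E90, and its values are given first because they touch most results at that stage. The summed level of the fibroblast markers, 8 of 10 of which were in the table, was 9300 CPM in dermal-like cells of E90, 1830 in epithelial-like, 2840 in myeloid-like and 3220 in mast-like cells. The epithelial markers, 10 of 11 in the table, summed to 8530 CPM in epithelial-like, 988 in dermal-like, 2750 in myeloid-like and 4000 in mast-like cells. At E120 the fibroblast markers were at 114 CPM in epithelial-like against 4130 in dermal-like cells, so the classes stood further apart in that library. At E60 they summed to 17200 CPM in dermal-like, 2320 in myeloid-like, 2280 in endothelial-like, 3890 in muscle-like and 7010 in Schwann- or glial-like cells. The small classes of E60 are therefore read with the same limit. Myeloid-like and mast-like cells, blood-derived cells that are not expected to carry a skin position code, served as the level against which a low value was read. The E90 mast-like class is not stable: it held 80 cells here, 8 at Leiden resolution 2 and 15 when cells were classed by their own markers, and its mast markers summed to 1030 CPM. The E90 myeloid-like class held 60 cells at both resolutions and 10 by own markers, so readings against these classes are descriptions only. The part of RNA from other cells in the results was not tested.

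Of the 61 genes, 55 had at least 3 counts at E60, 53 at E90 and 50 at E120. In dermal-like cells 17, 20 and 16 of them reached 10 CPM at E60, E90 and E120. In epithelial-like cells 17 reached that level at E90 and 6 at E120, and in endothelial-like cells 15, 18 and 8. HOXC12, DLX1, HOXA10, PAX2, PAX5, PAX7, PITX3, ALX1, ALX4, DLX4, HOXA3, HOXB5, HOXB6, PAX3 and SIX4 were each at 0 counts in at least 1 library. The floor used for a count of 0, which is 3 counts in the whole library, was 0.046, 0.099 and 0.032 CPM in order of age, and the exact 95% Poisson upper limits for 0 counts were 0.0567, 0.122 and 0.0395 CPM.

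Among the HOX genes analysed, the dermal-like cells of all 3 stages carried a code to which HOXC4, HOXB2, HOXA7 and HOXC8 gave most counts. HOXC4, one of the first genes of the HOXC cluster to act along the trunk, was at 79.6 (77.2–82.1), 102 (91.1–113) and 45.0 (34.9–57.2) CPM in dermal-like cells of E60, E90 and E120. HOXB2, a hindbrain and neck gene in its best known role, was at 67.4 (65.2–69.7), 70.2 (61.4–79.9) and 112 (95.8–131) CPM. HOXA7, a trunk gene, was at 49.0 (47.1–51.0), 37.4 (31.1–44.7) and 41.0 (31.3–52.6) CPM. These levels differed between stages by less than 2-fold except for HOXC4, which was 2.26-fold (1.74–2.99) higher at E90 than at E120. HOXC8, a thoracic gene, was at 37.3 (35.6–39.0), 37.1 (30.8–44.3) and 32.9 (24.4–43.5) CPM, with intervals that overlap at all 3 stages. At E90 the intervals of HOXA7 and HOXC8 also overlap those of mast-like cells (22.8, 9.15–46.9) and myeloid-like cells (23.3, 8.56–50.8), in that order. That of HOXC4 overlaps the myeloid-like interval (62.2, 35.5–101), so these 3 genes are less well separated from the reference cells at that stage than at E60 or E120.

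Other HOX genes gave fewer counts in the same cells. HOXA6 was at 8.42, 7.05 and 14.1 CPM, HOXD3 at 6.50, 5.21 and 2.69, and HOXD8 at 4.72, 10.7 and 6.05 in dermal-like cells of the 3 stages in order of age. HOXC6, which marks the thorax in many vertebrates, was at 2.13, 7.97 and 4.70 CPM, and HOXD9, a posterior trunk gene, was at 3.58, 13.2 and 4.70. Among the other HOX genes of these cells, those that stayed under 5 CPM at each stage were HOXA2, HOXA3, HOXA4 and HOXA5, HOXB3, HOXB4, HOXB5, HOXB6, HOXB8 and HOXB9, and HOXC5, HOXC10, HOXA10, HOXD1 and HOXD10. By paralog number, that is, position along the cluster, genes 4 to 8 made up 69.6%, 67.9% and 55.3% of the dermal-like HOX counts of E60, E90 and E120. Genes 1 to 3 made up 28.5%, 26.6% and 42.2%, and genes 9 to 12 made up 1.85%, 5.49% and 2.43%. RefSeq held 9 HOX genes that were not in the table, most of them posterior, and HOXC13 was left out. The shares therefore cover only the HOX genes analysed and do not measure all posterior genes. HOXC genes gave 45.1%, 47.7% and 31.3% of the dermal-like HOX counts, and HOXB genes 26.8%, 26.7% and 43.0%.

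The code was carried throughout the dermal-like population of E60 and not by 1 cluster. Across its 7 clusters the summed level of the 28 HOX genes ranged from 254 to 326 CPM. HOXC4 ranged from 68.7 to 88.3 CPM, HOXC8 from 30.5 to 52.1, HOXA7 from 35.1 to 64.8 and HOXB2 from 37.2 to 128, which made HOXB2 the most uneven of the 4. Tendon- or cartilage-like cells of E60 had HOXC4 at 93.8 (84.6–104), HOXA7 at 63.7 (56.2–72.0) and HOXB2 at 29.9 (24.8–35.7) CPM, so they shared the first pair with the dermal-like cells at a like or higher level and had less HOXB2.

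**Figure D1:**
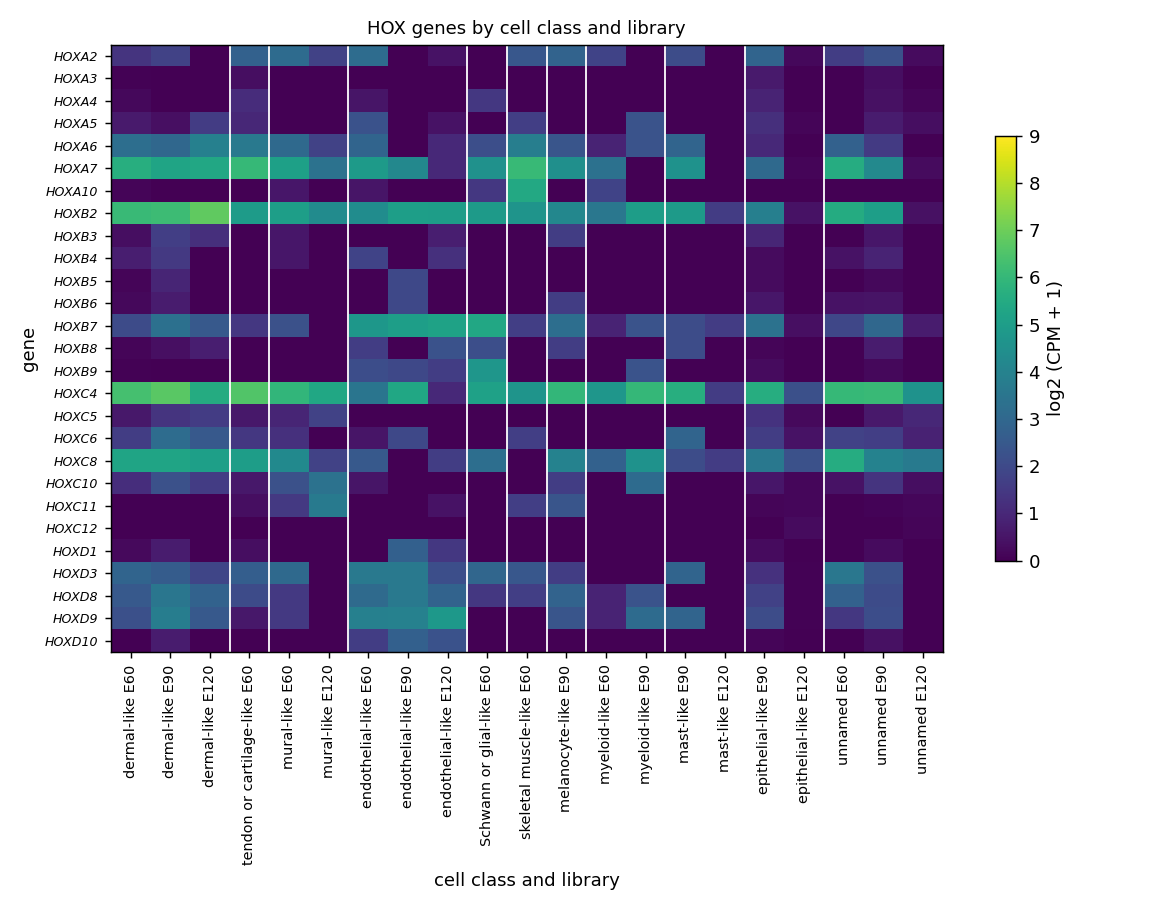
Levels of 27 HOX genes (rows) by cell class and library (columns), as log2 of CPM + 1, from 0 (dark) upward. Each column holds at least 50 cells, except the muscle-like cells of E60 (48 cells). HOXC4, HOXB2, HOXA7 and HOXC8 are high in the dermal-like columns of all 3 stages, and the epithelial-like column of E120 is near 0 in almost every row.

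The summed HOX level was 268 (263–272), 319 (299–339) and 277 (251–305) CPM in dermal-like cells of E60, E90 and E120. When cells were given a class from their own markers instead of their cluster, the E120 value was 95.8 CPM over 833 instead of 222 cells. The size of that value thus depends on how the class is drawn. In cells that are not expected to carry the code, the sum was 60.8 (47.6–76.6) CPM in myeloid-like cells of E60, 152 (108–207) in myeloid-like and 143 (104–192) in mast-like cells of E90, and 8.04 (2.19–20.6) in mast-like cells of E120. The dermal-like level was thus above this reference at each stage. The margins cannot be ranked between stages, because the reference was myeloid-like cells at E60, both classes at E90 and mast-like cells at E120. A UMI of any HOX gene was found in 89.3%, 81.1% and 77.9% of dermal-like cells, against 29.4% and 43.3% of myeloid-like cells at E60 and E90 and 4.04% of mast-like cells at E120. Median depths were 8636, 5377 and 5508 UMIs in the dermal-like cells and 8814, 3427 and 3751 in the reference cells. After thinning to 2000 UMIs per cell the shares were 41.3%, 47.1% and 42.9% in dermal-like cells against 8.38%, 25.9% and 2.40%.

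Endothelial-like cells carried another combination of HOX genes. HOXB7, a trunk gene of the HOXB cluster, was at 26.4 (20.2–33.8), 31.9 (15.9–57.0) and 35.2 (28.7–42.8) CPM in endothelial-like cells, and at 3.11 (2.65–3.64), 8.89 (5.95–12.8) and 4.70 (1.89–9.69) in dermal-like cells of E60, E90 and E120. The endothelial-like level was 8.47-fold (6.21–11.4), 3.59-fold (1.62–7.39) and 7.49-fold (3.51–19.1) higher, and the intervals of the 2 classes did not overlap at any stage. HOXB7 was in 34.3%, 11.9% and 24.8% of endothelial-like cells, against 2.76%, 4.73% and 2.70% of dermal-like cells, 0.840% and 1.67% of myeloid-like cells at E60 and E90, and 1.01% of mast-like cells at E120. The shares after thinning were 5.03%, 5.35% and 7.46% of endothelial-like and 0.601%, 1.84% and 0.999% of dermal-like cells.

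HOXD9 followed HOXB7 at E60 and E120. It was at 14.0 (9.66–19.7) CPM in endothelial-like cells of E60, 3.92-fold (2.62–5.70) above dermal-like cells, and at 26.5 (20.9–33.2) at E120, 5.64-fold (2.61–14.5) above them. At E90 it was at 14.5 (4.71–33.8) from 5 counts, and the ratio of 1.10 (0.340–2.77) did not separate the classes. HOXD10, a neighbour of HOXD9 in the cluster, had 5 counts in endothelial-like cells of E60 and 11 at E120 and none in dermal-like cells, at least 36.2-fold and 1.90-fold higher. HOXB9 had 8, 1 and 6 counts in endothelial-like cells of E60, E90 and E120, and its RefSeq gene overlaps HOXB8, so reads of the pair may not be separable.

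The leading dermal genes were lower in the endothelial-like cells. HOXC4 was 7.81-fold (5.24–12.2), 2.51-fold (1.47–4.63) and 42.9-fold (14.1–214) higher in dermal-like than in endothelial-like cells of E60, E90 and E120, the last against 3 counts. HOXC8 was 8.0-fold (4.44–16.0), at least 4.27-fold and 15.7-fold (6.71–44.8) above the endothelial-like level. HOXA7, by contrast, was 1.67-fold (1.32–2.16) higher in dermal-like cells at E60 and 39.2-fold (12.8–195) higher at E120. HOXB2 was at 20 (14.7–26.6), 31.9 (15.9–57.0) and 31.4 (25.3–38.6) CPM in endothelial-like cells, more than 2-fold below dermal-like cells at each stage. Its intervals overlapped those of myeloid-like cells at E60 (11, 5.85–18.8) and E90 (31.1, 13.4–61.3), and at E120 it stood above the mast-like level of 2.01 (0.0509–11.2). HOXC genes made up 9.87%, 23.1% and 2.84% of the endothelial-like HOX counts, HOXD genes 22.1%, 26.2% and 34.1%, and HOXB genes 34.1%, 38.5% and 60.8%.

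**Figure D2:**
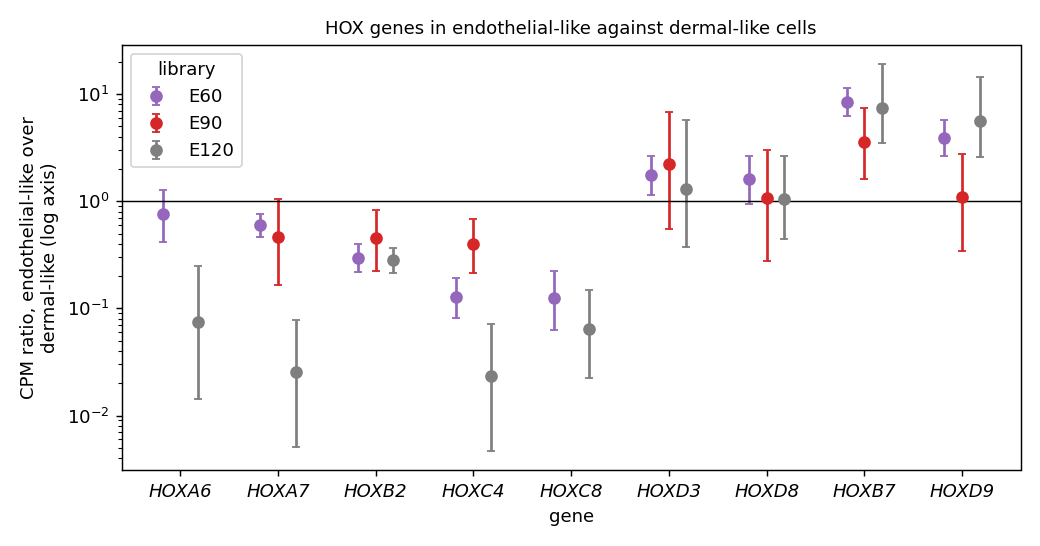
Ratio of the CPM in endothelial-like to that in dermal-like cells of the same library on a log axis, for 9 HOX genes, with 95% intervals from the counts; the line marks 1. HOXB7 lies above 1 at all 3 stages and HOXC4, HOXC8 and HOXB2 lie below it, while points with 0 counts on 1 side (HOXC8 and HOXA6 at E90) are left out.

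Of the 48 genes tested (at least 3 counts in 1 of the sums) between dermal-like and endothelial-like cells of E60, 11 were at least 2-fold higher in endothelial-like cells on the scale of CPM + 1, against 12.5% of all genes tested, and 14 were lower, against 9.25%. The 11 were 9 HOX genes, among them HOXA2, HOXA5, HOXB4, HOXB7, HOXB8, HOXB9, HOXD9 and HOXD10, with DLX2 and PITX1. At E90, 3 of 37 were higher (10.6% of all genes) and 20 lower (25.1%). At E120, 9 of 38 were higher (15.4%) and 21 lower (18.6%). HOXB7 was on the endothelial-like side of each stage, and HOXB2, HOXC4, HOXC6, HOXC8, IRX5, MEIS2, PRRX1 and PRRX2 were on the dermal-like side of each stage.

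Smaller cell classes differed again in their HOX genes. In Schwann- or glial-like cells of E60 (60 cells) HOXB7 was at 41.3 (26.5–61.5) CPM and HOXB9, a posterior gene, at 25.8 (14.5–42.6), the latter against 0.0391 CPM in dermal-like cells. HOXB genes made up 55.2% of their HOX counts. A muscle-like cluster of E60 held 48 cells, under the minimum of 50, and is given here by genes chosen after their values were seen. HOXA10, a posterior gene of the limb and lower trunk, was at 42.1 CPM in it, from 19 of the 29 counts in the library, and HOXA genes made up 67.4% of its HOX counts. Mural-like cells of E120, the contractile cells that sheathe vessels or follicles, had HOXC11 at 12 (3.88–27.9) CPM from 5 counts and HOXC10 at 9.56 (2.61–24.5) from 4, whereas dermal-like cells of that library had no HOXC11 count.

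Epithelial-like cells had few counts of the 28 HOX genes analysed at E120, a set that leaves out HOXC13. The sum was 9.45 (8.72–10.2) CPM from 607 counts, a level like that of mast-like cells, and dermal-like cells were 29.3-fold (25.8–33.2) higher. That ratio leaves out the unnamed cells of E120, which had 39.4 (37.0–42.0) CPM from 938 counts. HOXC genes gave 87.1% of these counts, with HOXC4 at 3.58 (3.13–4.08) and HOXC8 at 3.69 (3.24–4.19) CPM, while HOXB2 was at 0.343 and HOXA7 at 0.0935. The epithelial-like clusters of E120 ranged from 0.533 CPM in a cluster led by CNFN and SERPINB13, genes of the cornified layer, to 30.0 in a cluster of 263 cells led by SPP1, KLK7, CST6 and KRT14. Higher sums were found in unnamed clusters. Most unnamed clusters of E120 were closest to the epithelial marker list, though the naming rules left them unnamed. A cluster of 134 cells led by CCN2, SEMA3E and FST, with SOX9, LGR5 and CXCL14, had 68.4 CPM. A cluster of 633 cells led by TOP2A, CENPF and DCN had HOXC4 at 32.0 and HOXC8 at 17.4 CPM. DCN is on the fibroblast list, but the cluster was closest to the epithelial list. Unnamed cells of E120 had PRRX1 at 0.126, HOXB2 at 0.336 and HOXA7 at 0.210 CPM, against 147, 112 and 41.0 in dermal-like cells. Their fibroblast markers summed to 1220 CPM, against 4130. The source of these HOXC counts was not tested.

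At E90 the epithelial-like sum was 127 (120–134) CPM. It was no higher than in myeloid-like or mast-like cells of that library, and the part of RNA from other cells in it was not tested. Dermal-like cells were 2.52-fold (2.32–2.73) higher. HOXC12, the most posterior HOX gene analysed here, was counted at E120 alone, with 14 counts in the library and 0.187 CPM in epithelial-like cells.

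The cofactors differed in how widely they were found. PBX2, a ubiquitous PBX protein whose RefSeq gene overlaps AGER, was at 34.1 to 91.2 CPM in every class of at least 50 cells. PBX3, another HOX partner, was at 36.1 (28.9–44.7), 17.4 (6.38–37.9) and 28.3 (22.4–35.1) CPM in endothelial-like cells, and 4.21-fold (2.17–9.11) above dermal-like cells at E120. Mast-like cells had it at 36.2 (21.4–57.2) at E120 and 19.5 (7.16–42.4) at E90, and myeloid-like cells at 23.7 (15.7–34.2) at E60 and 42.7 (21.3–76.5) at E90. The endothelial-like level was not above these cells at any stage beyond the intervals. Epithelial-like cells of E120 had PBX3 at 0.623 CPM, far under the mast-like level, so mast-like cells cannot serve as a low reference for it. MEIS1 was at 62.9 (60.8–65.2), 34.0 (28.0–41.0) and 74.6 (61.3–89.8) CPM in dermal-like cells, against 27.5 and 3.04 in epithelial-like cells of E90 and E120 and 0.698 in endothelial-like cells of E120. MEIS2 was at 25.9, 75.4 and 28.2 CPM in dermal-like cells and at 78.0 (50.0–116) and 76.3 (54.0–105) in mast-like cells of E90 and E120, where epithelial-like cells had 18.3 and 0.327. The mast-like level of MEIS2 was thus as high as the dermal-like level at E90 and above it at E120, so it cannot serve as a low reference for this gene either. The dermal-like MEIS1 level of E90 lay within the mast-like interval of that library (29.3, 13.4–55.5), unlike that of E120, where mast-like cells had 8.04. MEIS3 was under 1 CPM in dermal-like cells of E60 and E90.

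The IRX genes, which pattern limb, heart and neural tissue and sit in 2 runs of 3 neighbours in ARS1.2 (IRX1, IRX2 and IRX4, and IRX3, IRX5 and IRX6), were counted in dermal-like cells of every stage, and 4 of the 6 were lower at each later stage by more than the counting error. IRX3 was at 358 (353–363) CPM in dermal-like cells of E60 and at 57.3 (49.4–66.2) at E90, a 6.25-fold (5.41–7.25) lower level, and it had 2 counts in dermal-like cells of E120. IRX5 was at 227 (223–231), 76.3 (67.2–86.4) and 10.7 (6.14–17.5) CPM, 2.98-fold (2.62–3.39) lower at E90 than at E60. IRX1 was at 218 (214–222), 101 (90.6–113) and 61.1 (49.2–75.1) CPM and IRX2 at 268 (264–273), 204 (189–220) and 117 (100–136). The intervals of these 4 genes did not overlap between any 2 stages. Of the 222 dermal-like cells of E120, 209 were in the papilla-like cluster, so stage and kind of dermal cell cannot be told apart here. Myeloid-like cells of E60 had 68.4 CPM of IRX3, 37.2 of IRX5, 43.9 of IRX1 and 55.8 of IRX2, well under the dermal-like levels. At E90, however, the dermal-like levels of IRX1, IRX2 and IRX3 were no higher than in mast-like cells (114, 322 and 68.3 CPM). The part of RNA from other cells in these levels was not tested. The dermal-like level of IRX5 lay within the mast-like interval (58.5, 34.7–92.5) and above the myeloid-like (31.1, 13.4–61.3) and endothelial-like (20.3, 8.16–41.8) ones. The reference cells thus do not settle it. IRX6 was at 21.8, 20.2 and 1.34 CPM. IRX4 was at 0.0391 (2 counts), 11.7 and 0.672 CPM, and its E90 value lay under the 32.5 CPM of mast-like cells.

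In epithelial-like cells the IRX1, IRX2 and IRX4 run was high at E90. IRX2 was at 481 (468–494) CPM and IRX1 at 212 (204–221), above the 322 (262–392) and 114 (79.2–158) CPM of mast-like cells. IRX4 was at 51.0 (46.8–55.5), within the mast-like interval of 15.6 to 59.8 and above the 11.7 (8.24–16.0) of dermal-like cells. IRX3, IRX5 and IRX6 were at 75.0, 64.5 and 29.3 CPM in epithelial-like cells, against 68.3, 58.5 and 22.8 in mast-like cells, a difference within the counting intervals. At E120 all 6 were lower in epithelial-like cells, with IRX2 at 77.7 (75.6–79.9), IRX5 at 16.2, IRX1 at 10.4, IRX3 at 5.25, IRX4 at 2.68 and IRX6 at 0.935 CPM. The ratios of E90 to E120 were 6.17 for IRX2, 3.98 for IRX5, 20.4 for IRX1, 14.3 for IRX3, 19.0 for IRX4 and 31.3 for IRX6. These E120 means cover uneven clusters. The epithelial-like cluster led by SPP1, KLK7, CST6 and KRT14 had IRX1 at 106, IRX2 at 310, IRX3 at 85.8 and IRX4 at 58.4 CPM, and the lowest epithelial-like cluster had IRX1 at 0.988. Outside these means, the unnamed cluster led by CCN2, SEMA3E and FST had IRX1 at 229, IRX2 at 557 and IRX4 at 133 CPM.

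**Figure D3:**
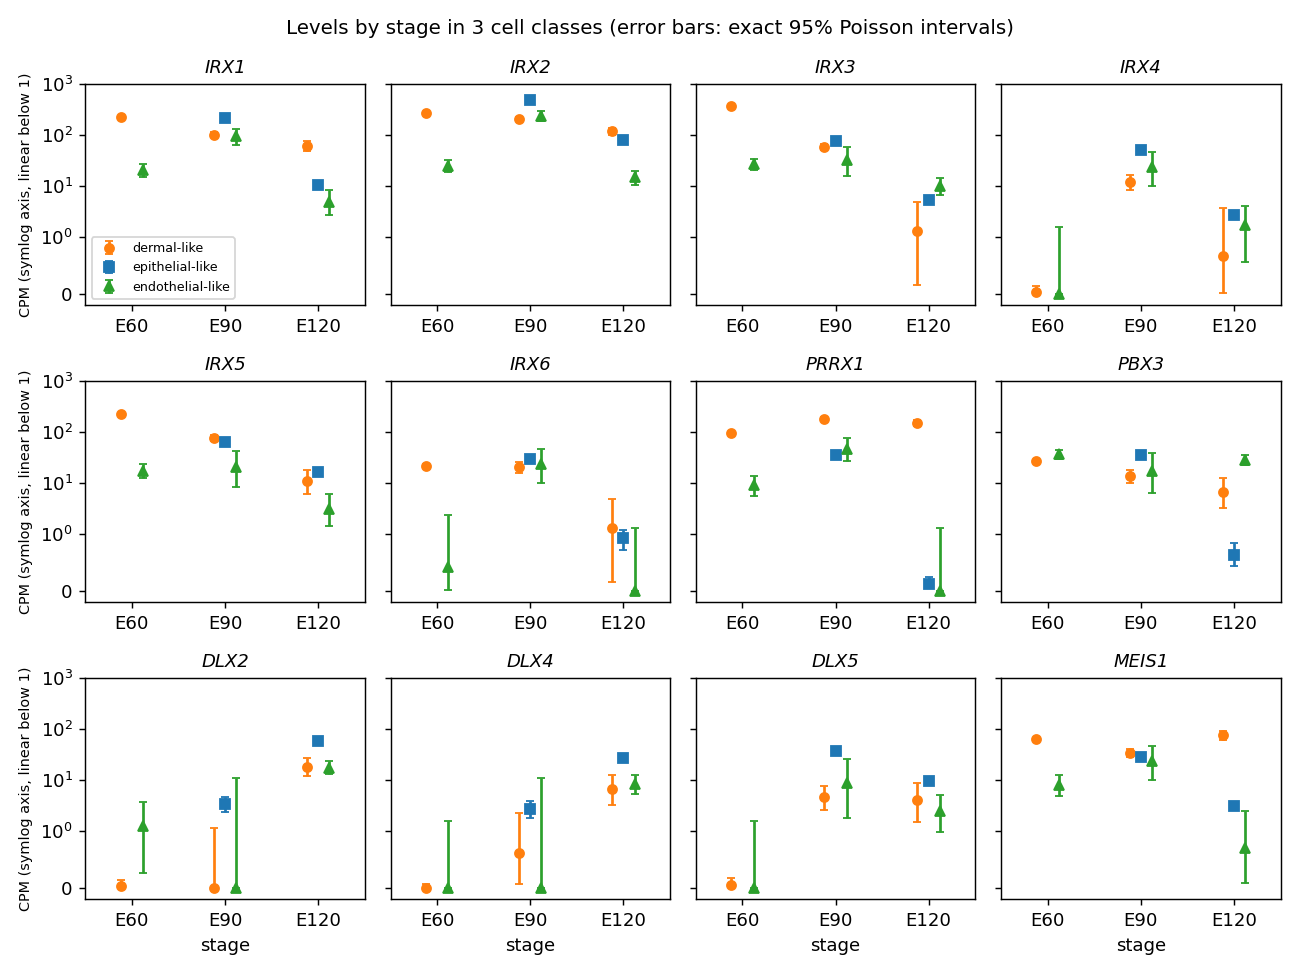
CPM of 12 genes by stage in dermal-like, epithelial-like and endothelial-like cells, with exact 95% Poisson intervals, on an axis that is linear below 1 and logarithmic above; epithelial-like cells of E60 are left out. Dermal-like IRX3 and IRX5 step down from E60 to E120, PRRX1 stays at 95.6 CPM or more in dermal-like cells, and epithelial-like DLX2 and DLX4 are higher at E120 than at E90. The dermal-like cells of E120 were mostly of the papilla-like cluster.

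PRRX1, a limb and skin mesenchyme gene, followed the dermal-like cells. It was at 95.6 (92.9–98.3), 177 (163–192) and 147 (128–168) CPM in dermal-like cells, and mural-like cells had it at 160 (144–178) at E60 and 83.7 (58.3–116) at E120. In epithelial-like cells of E120 it had 8 counts, 0.125 CPM, and endothelial-like cells of that library had none. PRRX2 was at 18.6, 20.8 and 8.73 CPM in dermal-like cells.

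The IRX genes were uneven among the dermal-like clusters of E60. A cluster of 724 cells led by DKK1, CXCL14 and ISM1 had IRX1 at 430 CPM, IRX2 at 456 and IRX3 at 445, and a cluster of 549 cells led by SMOC2 and SEMA3C had IRX1 at 142. HOXC4, in contrast, differed by less than 1.5 times over all 7 clusters. ALX4, a gene of hair follicle and skull development, had no count at E60 and 17 counts in dermal-like cells of both later stages, 5.21 (3.04–8.35) CPM at E90 and 11.4 (6.65–18.3) at E120. ALX1 had 23 counts in E90, of which 12 were in melanocyte-like cells, 25.4 (13.1–44.4) CPM in 11 of 90 cells.

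The DLX genes, which pattern ectoderm, face and teeth, were counted at E120 mainly in epithelial-like and unnamed cells when classes came from clusters. With the class of each cell taken from its own markers, DLX2, DLX4 and DLX5 were higher in dermal-like than in epithelial-like cells at E120, by log2 0.68, 0.68 and 0.81. That dermal-like class held 833 cells, against 222 by clusters, so it covers other cells too. By clusters, DLX2 was at 3.41 (2.39–4.72) CPM in epithelial-like cells of E90 and at 56.6 (54.7–58.4) at E120, 16.6-fold (12–23.7) higher. DLX4 was at 2.74 (1.84–3.94) and 27.4 (26.1–28.7), 9.99-fold (6.93–15.0) higher. DLX5 went the other way and was 3.89-fold (3.41–4.42) higher at E90, at 36.7 (33.2–40.6) against 9.44 (8.70–10.2), with 16.3 (5.28–37.9) in mast-like cells of E90. At E120 the mast-like cells had DLX2 at 18.1 (8.27–34.3) and DLX4 at 24.1 (12.5–42.1) CPM, and the dermal-like cells 18.1 and 6.72. The dermal-like values of both genes were no higher than the mast-like ones, and the epithelial-like mean of DLX4 lay within the mast-like interval, although DLX4 was in 28.0% of epithelial-like and 8.08% of mast-like cells at median depths of 16165 and 3751 UMIs. Hair shaft markers, 9 of 10 in the table, summed to 29500 CPM in epithelial-like, 2490 in dermal-like and 5330 in mast-like cells of that library. Among the E120 clusters DLX2 reached 120 CPM in one led by the replication histone HIST1H1B, and DLX4 reached 91.8 in an unnamed one led by ALDH1A3 and S100A8 and 86.2 in the one led by CNFN. The unnamed cluster led by TOP2A, CENPF and DCN had DLX2 at 133 and DLX4 at 71.7 CPM. DLX1 was counted at E120 alone, with 93 counts and 0.857 (0.645–1.12) CPM in epithelial-like cells, at least 3.02-fold above E90.

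DLX5 had a second place outside the epithelium. In mural-like cells of E120 it was at 198 (158–246) CPM, in 36 of 67 cells, against 9.44 in the epithelial-like and 4.03 in the dermal-like cells of that library. Mural-like cells of E60 had it at 0.462 CPM, from 1 count. At E90 DLX5 was highest in a suprabasal-like epithelial cluster, 78.5 CPM in 87 of 327 cells. PITX1, a hindlimb and oral ectoderm gene, was at 45.4 CPM in the same cluster, in 57 of 327 cells.

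Some PAX genes were highest in small classes. PAX3, a neural crest, melanocyte and muscle precursor gene, was at 53.4 (36.3–75.8) CPM in Schwann- or glial-like cells of E60, in 22 of 60 cells, and at 138 (106–175) in melanocyte-like cells of E90, in 22 of 90 cells. It had no count in dermal-like cells of E60 and 1 count in those of E90. The same Schwann- or glial-like cells had DLX2, a cranial neural crest gene, at 51.7 (34.9–73.8) CPM in 18 of 60 cells. In the muscle-like cluster of E60, PAX7, the gene of muscle precursors, was at 190 CPM in 28 of 48 cells, and PITX1 at 53.1 in 15 cells. PAX5, a B-cell gene, had 6 counts at E60, all in myeloid-like cells. SIX5 was low and broad, at 10.1, 8.89 and 4.03 CPM in dermal-like cells, and PAX1 was at 0.215, 1.23 and 6.72. PAX2, PAX8, SIX4 and PITX3, the last overlapping ELOVL3 in RefSeq, did not reach 20 CPM in any class of at least 50 cells.

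**Figure D4:**
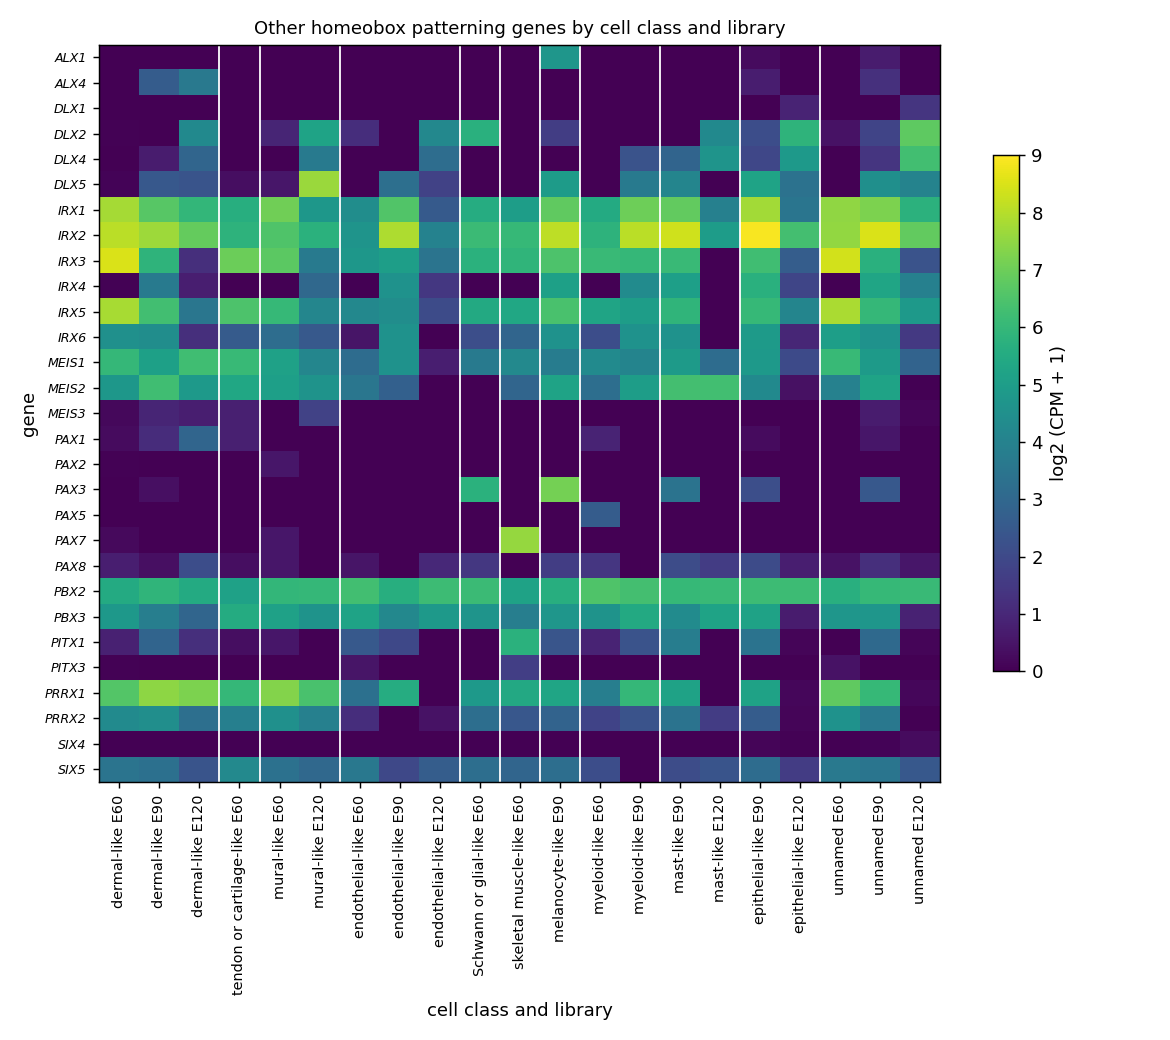
Levels of 29 genes outside the HOX family (rows) by cell class and library (columns), as log2 of CPM + 1. PBX2 is found in every column, PRRX1 is highest in mesenchymal columns, DLX2 and DLX4 in E120 epithelial-like and unnamed columns, and PAX3 in the Schwann-like and melanocyte-like columns.

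Counted over the family, the split between dermal-like and epithelial-like cells was wider at E120 than at E90. At E120, 25 of 41 tested genes were at least 2-fold higher in dermal-like cells on the scale of CPM + 1, against 25.1% of all genes tested, and 5 were higher in epithelial-like cells, against 9.74%. Of 17 HOX genes tested, 13 were on the dermal-like side and none on the epithelial-like side. The 5 were DLX2, DLX4, DLX5, IRX3 and IRX4. With classes drawn from each cell's own markers, the 3 DLX genes and IRX4 (log2 1.98) lay on the dermal-like side instead, in a class of 833 instead of 222 cells. At E90, 17 of 45 were higher in dermal-like cells (11.5% of all genes) and 11 lower (8.42%), with 11 of 21 HOX genes among the higher and 2 among the lower. The median log2 difference over the genes tested was 1.46 at E120 and 0.24 at E90, beside 0.17 and 0.14 over all genes.

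Between E90 and E120, 32 of 45 genes were lower in epithelial-like cells at E120 by at least 2-fold, against 24.4% of all genes tested, and 2 were higher, DLX2 and DLX4, against 5.32%. The 32 included 14 of 21 HOX genes. The median log2 difference was -1.71 beside -0.36 over all genes. Fibroblast markers summed to 1830 CPM in epithelial-like cells of E90 and to 114 in those of E120, and hair shaft markers to 283 and 29500. The parts of RNA from other cells and of the mix of epithelial cells in this difference were not tested. Between E60 and E90 in dermal-like cells, 13 of 47 genes were higher at E90 (29.4% of all genes) and 3 lower (3.78%), a share of higher genes near that of all genes. The 3 were IRX1, IRX3 and IRX5. With sums scaled by the median of gene ratios, which moves all log2 differences by -0.85, the split was 5 higher and 7 lower; MEIS2 and HOXD9 kept a higher level at E90 but by under 2-fold, and the smaller differences of HOXC4, HOXB2, PBX2, PRRX2 and the HOX sum turned sign. Between E90 and E120 in dermal-like cells, 7 of 41 were higher (10.5%) and 13 lower (21.0%).

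Whole libraries also follow the mix of cells. From E60 to E90, 8 of 58 genes were higher (16.8% of all genes) and 9 lower (4.46%), or 7 and 12 with the median of ratios. From E90 to E120, 2 of 56 were higher (5.43%) and 31 lower (17.5%), and from E60 to E120, 4 of 60 were higher (12.4%) and 25 lower (13.0%). The summed HOX level of the whole libraries, with HOXC13 left out, was 253, 172 and 25.2 CPM. The sum of dermal-like cells differed by 1.19-fold (1.12–1.27) between E60 and E90 and by 0.869 (0.773–0.975) between E90 and E120. Within endothelial-like cells, from E60 to E120, 5 of 36 were higher (20.2%) and 15 lower (10.4%), across 2 clusters that differ in their lymphatic markers.

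Other genes of position were taken from whole lists, and their counts at E120 stand beside 25.1% of all genes tested that were higher in dermal-like cells and 9.74% that were lower. Of 5 tested T-box and body-wall genes, 5 were at least 2-fold higher in dermal-like than epithelial-like cells of E120, led by TBX15, a dermal patterning gene, at 180 against 0.109 CPM and TBX18 at 33.6 against 0.0779. The list's median log2 difference was 4.38, beside 0.17 over all genes. Of 27 other homeobox genes, 13 were higher in dermal-like cells, with SHOX2 at 214 against 0.498 and ZEB2 at 112 against 0.125. Another 3 were higher in epithelial-like cells, among them BARX2 at 27.8 against 2.02 and LHX2, a hair follicle gene, at 95.1 against 19.5. Of 11 retinoic acid genes, 6 were higher in dermal-like cells, with the retinoic acid binding proteins CRABP1 at 2550 against 117 and CRABP2 at 1080 against 76.6. Of 6 HOX cofactors outside the rule 5 were higher, TSHZ3 among them at 16.1 against 0.935, and of 5 EYA, DACH and SKI genes 3 were higher and 1 lower, with EYA2 at 30.9 against 0.0623. Of 16 chromatin regulators of HOX genes, 1 was higher and 2 lower.

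The same lists were read between stages and between vessels and dermis. From E60 to E90 in dermal-like cells, 13 of 30 other homeobox genes were higher and 1 lower, beside 29.4% and 3.78% of all genes, and their median log2 difference was 0.58 beside 0.42. They included BARX2 at 0.0391 and 42.6 CPM and ZFHX4 at 96.1 and 1.53. Of 9 retinoic acid genes 4 were higher and 3 lower, with CYP26B1, which breaks retinoic acid down, at 10.9 and 166 CPM, and CRABP1 at 4500 and 1360. BARX2 at E90 was at 291 CPM in epithelial-like cells, so its dermal-like value stands beside RNA of another class. Between dermal-like and endothelial-like cells of E60, 7 of 29 other homeobox genes were higher in endothelial-like cells and 8 lower, beside 12.5% and 9.25% of all genes, and at E120 5 of 19 were higher and 7 lower, beside 15.4% and 18.6%. In endothelial-like cells of E60, HHEX and HLX, endothelial and blood regulators, were at 211 and 91.4 CPM against 0.528 and 0.372 in dermal-like cells. MEOX1 was at 221 CPM in endothelial-like cells of E120 against 1.34 in dermal-like cells.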

How the data were processed

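Single-cell RNA libraries were made with 10x Genomics 3′ chemistry, version 3, per the labels' protocols, and read with Cell Ranger 3.0.2, per the submitters' processing notes. The aligner settings, genome build, annotation and cell filters are not given in the sources used here. The deposited values were natural log values, ln of 1 plus counts scaled to 10000 per cell, as the values themselves show. UMI counts were recovered by inversion, taking the smallest value of a cell as 1 UMI: 100% of 13245017, 9007461 and 14965452 nonzero values (E60, E90 and E120) came out whole within 0.01. The design had assumed counts, so all sums are of recovered counts. The study states 19705 cells and the table held 20676, all of which were used. Total UMIs were 65049552, 30277663 and 93403291, and mitochondrial shares 4.52%, 11.1% and 5.26%.

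The members and gene lists were chosen with earlier results of these data known. Clustering used 2000 variable genes without the 61 members (10 would have been among them), 30 components, 20 neighbours and Leiden resolution 1 (Python 3.11.15 with scanpy 1.11.5, scipy 1.17.1, numpy 2.4.6, igraph 0.11.9 and leidenalg 0.10.2). A cluster was named from at least 3 markers found in at least 10% of its cells, and a class needed 50 cells. No name was given where another class had more markers among the 10 leading genes than the closest class, where at least 3 of those 10 were mitochondrial or haemoglobin genes, or where cells were shallow (median UMIs under 1/3 of the library median) and none of the 10 was a marker of the closest class. A Scrublet threshold marked 0.0438%, 0% and 0.0145% of cells and so did not work; no cell was removed, and leaving out the 6% highest scores was added after seeing the data. Log2 ratios are of CPM + 1, with 2-fold as the limit and at least 3 counts in 1 of the sums; folds against 0 counts use a floor of 3 counts in the sum. Intervals are exact Poisson for levels, exact binomial for shares and conditional binomial for ratios. With 1 library per stage there is no replicate error, no test and no p-value. Members were named with values when they reached 20 CPM in a library or class, 26 of them, and every HOX gene with at least 3 counts was named too. Results of some genes are not reported here, in the text or the figures, though they are within the counts and sums. Comparisons with endothelial-like cells, and from E90 to E120 in dermal-like cells, were added after the data had been seen. The 2-fold calls and the ratio intervals were tested on simulated gene sums with known fold changes.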

Additional observations from a re-analysis of the deposited data

Results flagged for a closer look

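A pair of genes lay on opposite sides of the dermal-like and epithelial-like comparison at E90 and E120. The log2 difference of IRX1 (dermal-like minus epithelial-like, CPM + 1) was -1.06 at E90 and 2.44 at E120, and that of PBX3 was -1.34 and 2.25. MEIS1 lay on opposite sides between E90 and E120 in the 2 classes: it differed by 1.11 in dermal-like and -2.82 in epithelial-like cells (log2, E120 minus E90). With 1 library per stage none of these differences between differences was tested, and stage cannot be told apart from dissociation.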

How the results depend on the processing

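No paired analysis was possible because each stage is 1 library with no replicate number. With a pseudocount of 10 CPM fewer genes passed 2-fold: dermal-like over epithelial-like, 12 higher and 2 lower at E120 and 8 and 4 at E90; E60 to E90 in dermal-like cells, 2 higher; E90 to E120 in epithelial-like cells, 15 lower; and in whole libraries 2 higher and 3 lower (E60 to E90), 14 lower (E90 to E120) and 15 lower (E60 to E120). A larger pseudocount shrinks ratios of low genes by construction. Median-of-ratios scaling gave 5 higher and 7 lower from E60 to E90 in dermal-like cells. With the class of each cell taken from its own markers, dermal-like over epithelial-like counts were 16 higher and 0 lower at E120 and 10 and 1 at E90, and the HOX sums were 95.8 (dermal-like E120), 264 (dermal-like E90), 12.9 (epithelial-like E120) and 146 CPM (epithelial-like E90). Under that setting DLX2 (0.68), DLX4 (0.68), DLX5 (0.81) and IRX4 (1.98) reversed against -1.59, -1.88, -1.05 and -1.14 (log2, E120). The dermal-like class of E120 then held 833 cells, against 222 by clusters. The cause of the reversal was not tested. The epithelial-like HOX sum of E120 was 12.1 CPM with cells weighted equally, 13.4 at Leiden resolution 2 and 10.3 with the members kept in clustering, and that of E90 was 119 when cells under 1000 genes or over 10% mitochondrial counts were dropped. Leaving out called doublets or the highest doublet scores, a minimum of 10 counts and Leiden resolution 0.5 moved none of the main results they apply to. Among named genes, no other called difference reversed under the settings run. Depth limits E90 most: its reference classes hold 60 and 80 cells, so a gene there rests on few counts. The intervals leave out differences between fetuses.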
